A study of Mus musculus with 14 samples.

Results

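The Slc25 family is one of solute carriers, most of them in the inner mitochondrial membrane. Its members were taken here as all probe sets of the array whose single annotated gene symbol begins with Slc25a. This rule gave 93 of 45101 probe sets, which report 44 genes. A further 1 probe set, annotated to Slc25a37 and another symbol together, was left out. RNA of whole brain and of the vastus lateralis, which belongs to the quadriceps, was hybridised to Affymetrix Mouse Genome 430 2.0 arrays, 1 sample to an array. A probe set there is meant to report a transcript, and some probe sets can report several. Each tissue was represented by 4 wild-type arrays and 3 PWS-IC del arrays, where PWS-IC del is a deletion of the imprinting center of the Prader-Willi syndrome domain and the wild-type mice were littermates of the same age. All mice of both genotypes were F1 hybrids of FVB and B6. The age, the sex and whether brain and muscle came from the same mice are not stated. The titles call the samples biological replicas and say no more of their origin, so the p-values measure the spread between these samples. Bulk tissue RNA does not tell fewer cells of a type from less RNA per cell.

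Carriers of this family move nucleotides, phosphate, amino acids, carboxylates, cofactors and ions between the cytosol and the mitochondrial matrix. Most share a fold built of repeated pairs of membrane helices, and most exchange one solute for another. In skeletal muscle the exchange of ADP for ATP and the entry of phosphate and acylcarnitines serve contraction. In brain the aspartate-glutamate and glutamate carriers connect mitochondria with the handling of the transmitter glutamate and with the transfer of reducing equivalents.

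Windows of 300 bases around the gene start, 250 before and 50 after it, were in the RefSeq promoter table of assembly GRCm38.p6 for 34 of the 44 genes, with 43 windows in all. Below are 4 of them, chosen after the values were seen: the ADP/ATP carriers Slc25a4 and Slc25a5, which lay on opposite sides between the tissues, the acylcarnitine carrier Slc25a20, the most muscle-sided member, and Slc25a30, the member with the most negative genotype difference in muscle. Slc25a4 lies at chr8:46211013-46211312 on the minus strand, Slc25a5 at chrX:36795347-36795646 on the plus strand, Slc25a20 at chr9:108661886-108662185 on the plus strand and Slc25a30 at chr14:75786988-75787287 on the minus strand. The sequences run 5′ to 3′ on the gene's strand, and capitals mark matches on either strand to the GC box GGGCGG or to the ETS-type site CCGGAAG, which do not overlap each other.
Slc25a4: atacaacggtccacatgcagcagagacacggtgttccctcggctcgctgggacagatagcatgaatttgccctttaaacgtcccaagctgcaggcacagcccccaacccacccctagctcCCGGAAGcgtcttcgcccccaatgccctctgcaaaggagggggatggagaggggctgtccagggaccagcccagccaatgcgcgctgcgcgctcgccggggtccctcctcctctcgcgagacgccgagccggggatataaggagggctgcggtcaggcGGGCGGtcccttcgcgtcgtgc
Slc25a5: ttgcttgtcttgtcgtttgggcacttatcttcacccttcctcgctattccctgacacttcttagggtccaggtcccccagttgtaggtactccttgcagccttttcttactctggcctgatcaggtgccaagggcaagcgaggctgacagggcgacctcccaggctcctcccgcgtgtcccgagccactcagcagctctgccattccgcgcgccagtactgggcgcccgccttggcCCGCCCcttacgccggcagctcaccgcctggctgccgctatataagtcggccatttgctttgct
Slc25a20: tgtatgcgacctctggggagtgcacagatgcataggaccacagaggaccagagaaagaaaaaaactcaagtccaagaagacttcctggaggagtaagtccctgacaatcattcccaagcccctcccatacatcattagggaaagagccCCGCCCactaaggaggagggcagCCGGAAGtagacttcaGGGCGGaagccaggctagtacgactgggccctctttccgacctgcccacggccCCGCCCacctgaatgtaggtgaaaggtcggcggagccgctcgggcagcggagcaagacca
Slc25a30: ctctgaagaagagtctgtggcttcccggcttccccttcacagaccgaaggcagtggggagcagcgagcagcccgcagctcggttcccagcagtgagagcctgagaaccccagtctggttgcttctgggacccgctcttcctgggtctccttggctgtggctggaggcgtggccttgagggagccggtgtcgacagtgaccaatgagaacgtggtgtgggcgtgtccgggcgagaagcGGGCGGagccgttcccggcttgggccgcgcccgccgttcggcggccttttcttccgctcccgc
The GC content of these windows was 65.7% for Slc25a4, 61% for Slc25a5, 58% for Slc25a20 and 66.7% for Slc25a30, against a median of 52.7% over all windows. The GC box matched 1 time in the windows of Slc25a4, Slc25a5 and Slc25a30 and 3 times in that of Slc25a20. CCGGAAG matched 1 time each in Slc25a4 and Slc25a20. Over the family, GGGCGG was found in 37 of 43 windows (86%), against 35.7% of all 32851 promoter windows and 46.2% of those of protein-coding genes. The share for CCGGAAG was 16.3%, against 8.86% of all windows and 11.6% of those of protein-coding genes. AAGGTCA, the half-site of the estrogen-related receptors, was found in 2.33% of the family's windows and in 4.72% of all. The NRF-1 palindrome was in 4.65% against 4.6%, TATAAA in 2.33% against 13.6%, and the E-box CAGCTG in 11.6% against 16.3%. A match is a description of these letters in this window.

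Median intensity was 142 to 170.1 in the brain arrays and 88.74 to 96.36 in the muscle arrays, and 0 pairs of arrays held identical values. In brain the domain genes Snrpn, Ndn and Snhg14 were lower in PWS-IC del arrays, at -4.87 ± 0.29 (SE), -4.13 ± 0.26 and -3.63 ± 0.21 on the log2 scale, with groups that did not overlap. In muscle Snhg14 was at -2.20 ± 0.10 and Ndn at -1.27 ± 0.11, while Snrpn was at -0.39 ± 0.14 (adjusted p = 0.326). Neuron markers averaged 12.78 to 12.86 log2 in the brain arrays and 5.84 to 7.55 in the muscle arrays. The 10 skeletal muscle fibre markers averaged 13.75 to 13.84 in muscle. In brain they averaged 9.96 in wild-type array 1 and 9.31 in wild-type array 3, and 6.37 to 6.90 in the other 5 arrays. The fit of all 8 wild-type arrays called 21 members higher and 12 lower in brain, among 12213 genes called in all. Without those 2 arrays it called 17 and 12, among 11683 genes. Marker lists of brain regions were also uneven over the 7 arrays labelled as whole brain. Striatal neuron markers averaged 9.43 to 11.53 and choroid plexus markers 7.56 to 10.21. Pituitary markers averaged 8.84 in wild-type array 3 and 6.31 to 6.63 in the others. Purkinje cell markers averaged 11.78 in wild-type array 3, 13.72 in PWS-IC del array 2 and 10.14 to 10.40 in the others. Their part in the values of the members was not tested.

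All values below are log2(intensity + 16), and a difference of 1 on this scale is a 2-fold change of intensity above that offset, so changes of dim genes are understated. One probe set stood for each gene, the one with the highest mean over the 14 arrays, and genes under the 0.25 quantile of a tissue's means were not tested there. Of the 44 genes, 39 were tested in brain and 40 in muscle. Slc25a13, Slc25a31, Slc25a41 and Slc25a54 were too dim in both tissues, and Slc25a47 in brain. These 4 included the aspartate-glutamate carrier citrin (Slc25a13) at 5.85 to 6.70 in brain and 4.83 to 5.78 in muscle. They also included Slc25a31, an ADP/ATP carrier known from testis, at 4.00 to 4.90 in brain and 4.22 to 4.75 in muscle.

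The first comparison asked how the carriers of wild-type brain and wild-type muscle differ. The brain-sided carriers were Slc25a5, Slc25a14, Slc25a17, Slc25a18, Slc25a22, Slc25a23, Slc25a33, Slc25a40 and Slc25a44. The muscle-sided carriers were Slc25a3, Slc25a4, Slc25a11, Slc25a12, Slc25a15, Slc25a20, Slc25a24, Slc25a28, Slc25a30, Slc25a35, Slc25a45 and Slc25a47. These 9 and 12 genes passed the threshold, an adjusted p under 0.05, in the same direction with the values as deposited, after median centring and after quantile normalization. By that rule 22.5% of the tested members were higher and 30% lower in brain, against 31.6% and 22.4% of all genes, a description with no test. The scaling matters because the median of the wild-type brain arrays was 0.81 log2 units above that of the muscle arrays. As deposited, 21 members were higher and 12 lower in brain, with 81.7% of all genes called, 59.3% higher and 22.4% lower. The median member difference was 0.25, against 0.52 for all genes. After centring it was -0.56, against -0.28. Slc25a16, Slc25a36, Slc25a39 and Slc25a51 were called higher in one scaling and lower in another and are given no direction.

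**Figure D1:**
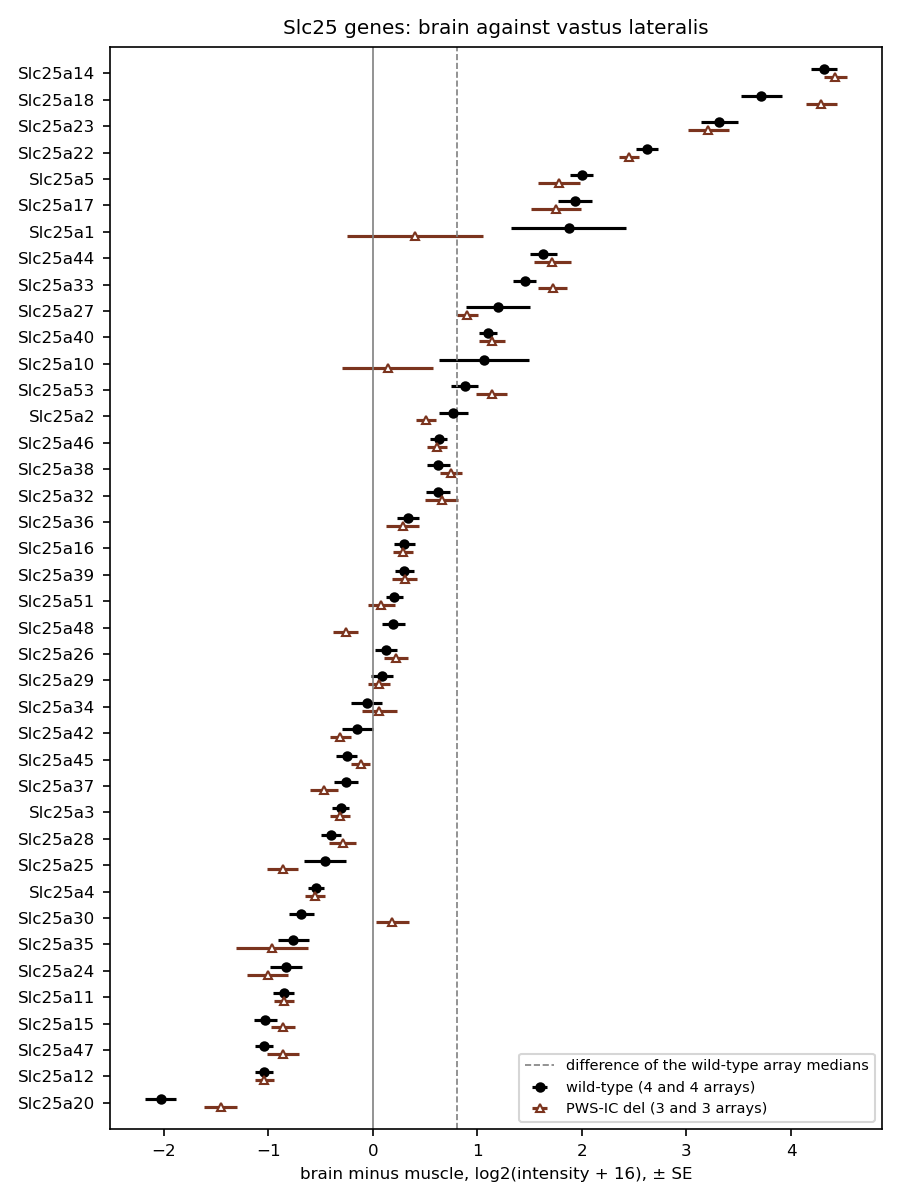
Difference between brain and muscle for the 40 tested Slc25 genes (x axis, brain minus muscle in log2(intensity + 16), bars SE), in wild-type arrays (filled circles, 4 and 4) and PWS-IC del arrays (open triangles, 3 and 3). The dashed line marks the 0.81 by which the wild-type array medians differed; Slc25a14 lies farthest to the brain side at 4.32 and Slc25a20 farthest to the muscle side at -2.03.

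Among the carriers of adenine nucleotides and phosphate, 6 of 8 genes were tested, of which 2 were higher and 3 lower in brain under all scalings. By the same rule 31.6% of all genes were higher and 22.4% lower. The substrate groups were written after the values were seen, and their counts are a description with no test. Slc25a4, which exchanges ADP for ATP and predominates in heart and skeletal muscle, was at 13.38, 13.32, 13.46 and 13.41 in the wild-type brain arrays and at 13.91, 13.93, 13.94 and 13.98 in the wild-type muscle arrays. The groups did not overlap, and brain was lower by 0.55 ± 0.08 (SE), with an adjusted p of 6.72e-05. All 4 of its probe sets were lower in brain, by -1.37 to -0.50. This transcript lay at or above the 99.7th percentile of each array's genes, near the upper end of the arrays' range. The paralog Slc25a5 was the reverse. It stood at 12.71, 12.78, 12.73 and 12.75 in wild-type brain and at 10.59, 11.05, 10.63 and 10.69 in muscle. Brain was higher by 2.00 ± 0.11 (adjusted p = 4.64e-08), and all 8 probe sets of the gene were higher, by 1.94 to 2.28. Some of these 8, the chosen one among them, are of the type that can share probes with related genes.

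The phosphate carrier Slc25a3 was at 13.33 to 13.56 in wild-type brain and at 13.73 to 13.81 in muscle, a difference of -0.31 ± 0.08 (adjusted p = 0.00527). Its second probe set was at -0.09, and the call was lost with the mean of both probe sets. Slc25a23, a calcium-regulated exchanger of ATP-Mg for phosphate, was at 11.28, 11.08, 10.67 and 11.14 in brain and at 7.49, 8.06, 7.94 and 7.42 in muscle. Brain was higher by 3.32 ± 0.18 (adjusted p = 3.65e-08). Its relative Slc25a24 was on the muscle side, at 7.08, 7.14, 7.64 and 7.63 in brain and at 8.12, 8.44, 8.17 and 8.10 in muscle, a difference of -0.83 ± 0.15. Slc25a25, the remaining tested exchanger of this type, was at -0.46 ± 0.20 (adjusted p = 0.0554) in wild-type arrays. Its 3 probe sets ranged from -0.92 to -0.46 as deposited, and 2 of them passed on the muscle side.

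**Figure D2:**
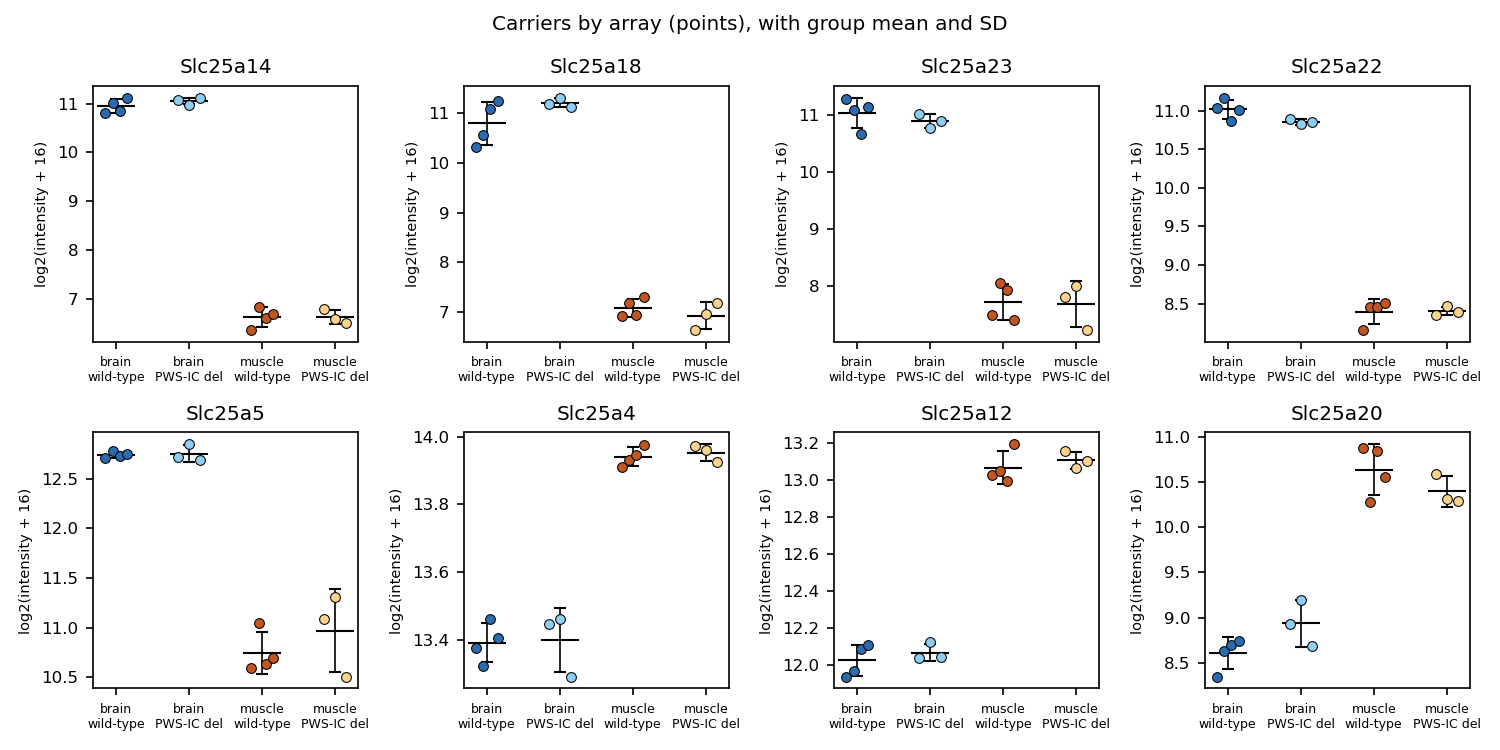
Values of 8 carriers in each array (points, y axis in log2(intensity + 16)), by tissue and genotype, with the group mean and SD (4 wild-type and 3 PWS-IC del arrays per tissue); each panel has its own y range. In every panel the brain and muscle arrays are apart, with Slc25a14, Slc25a18, Slc25a23, Slc25a22 and Slc25a5 above in brain and Slc25a4, Slc25a12 and Slc25a20 above in muscle.

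Carriers of amino acids held both directions. Of 8 tested genes, 3 were higher and 2 lower in brain under all scalings, against 31.6% and 22.4% of all genes. The glutamate carriers Slc25a18 and Slc25a22 import glutamate with a proton. Slc25a18 was at 10.31, 10.56, 11.08 and 11.24 in wild-type brain and at 6.92, 7.18, 6.94 and 7.30 in muscle, so brain was higher by 3.72 ± 0.20 (adjusted p = 3.62e-08). Slc25a22 was at 11.03, 11.17, 10.86 and 11.004 in brain and at 8.16, 8.45, 8.46 and 8.51 in muscle, a difference of 2.62 ± 0.11. The spread among brain arrays was wider for Slc25a18 (SD 0.43) than for Slc25a22 (SD 0.13), and astrocyte markers also ranged over these arrays, from 10.90 to 11.57; their part was not tested.

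Slc25a12, the aspartate-glutamate carrier aralar of the malate-aspartate shuttle, was on the muscle side. It was at 11.94, 11.97, 12.09 and 12.11 in brain and at 13.03, 13.05, 12.995 and 13.19 in muscle, a difference of -1.04 ± 0.09 (adjusted p = 1.14e-06). A second probe set gave -0.90. The third gave 0.76 and did not pass; it was at 9.10 in wild-type brain array 1 and at 7.28 to 8.14 in the other wild-type brain arrays. The ornithine carrier Slc25a15, of the urea cycle, was at 8.83, 9.05, 9.23 and 9.26 in brain and at 10.19, 10.12, 10.15 and 10.03 in muscle, a difference of -1.03 ± 0.11. Its second probe set pointed the other way, at 0.21, and did not pass. Slc25a44, which carries branched-chain amino acids, was at 10.10 to 10.62 in brain and 8.55 to 8.88 in muscle, a difference of 1.63 ± 0.13. Its 3 probe sets ranged from 0.29 to 1.63 as deposited, and 2 of them passed. The glycine carrier Slc25a38 was at 0.63 ± 0.11 as deposited and at -0.18 after centring, so its side depended on the scaling.

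Of the carriers of carboxylates and carnitine, all 4 were tested, and 2 were lower in brain under all scalings, against 22.4% of all genes. Slc25a20, which exchanges acylcarnitines for carnitine and so admits long-chain fatty acids to oxidation, was at 8.35, 8.63, 8.69 and 8.74 in wild-type brain. In wild-type muscle it was at 10.87, 10.28, 10.84 and 10.55. Brain was lower by 2.03 ± 0.15 (adjusted p = 4.15e-07), and its 2 probe sets gave -2.03 and -2.02. Slow fibre markers averaged 11.17, 9.11, 11.65 and 11.55 in the same muscle arrays, and wild-type array 2 was the lowest for both; their part was not tested. The oxoglutarate-malate carrier Slc25a11 was at 11.19 to 11.42 in brain and 12.01 to 12.31 in muscle, a difference of -0.86 ± 0.10. The citrate carrier Slc25a1 and the dicarboxylate carrier Slc25a10 were at 1.87 ± 0.55 and 1.06 ± 0.43 as deposited, with overlapping groups, and neither passed after centring.

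Slc25a14, Slc25a27 and Slc25a30 are relatives of the uncoupling proteins. Slc25a14 had the most positive tissue difference of the family: it was at 10.80, 11.02, 10.85 and 11.11 in wild-type brain and at 6.36, 6.84, 6.61 and 6.70 in muscle, a difference of 4.32 ± 0.12 (adjusted p = 5.28e-10). Slc25a27, known from neurons, was at 10.43 in wild-type brain array 1, at 8.68 to 9.25 in the other wild-type brain arrays and at 8.10 to 8.27 in muscle. Its difference of 1.20 ± 0.30 passed as deposited and not after centring (0.39). Slc25a30 was at 8.51, 8.51, 8.56 and 8.45 in brain and at 9.02, 9.55, 9.08 and 9.11 in muscle, a difference of -0.69 ± 0.12. Its probe sets did not share a direction: another was higher in brain by 0.27 as deposited, and the mean over its probe sets gave -0.17, which did not pass. Probe sets of Slc25a36 and Slc25a51 likewise passed in both directions. Among the 23 genes with 2 or more probe sets, these 3 were the ones with calls both ways.

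Iron and glutathione carriers gave smaller differences. The mitoferrins bring iron to haem and iron-sulphur cluster synthesis. Mitoferrin 2 (Slc25a28) was at 9.94, 9.85, 9.74 and 9.86 in brain and at 10.37, 10.08, 10.30 and 10.24 in muscle, a difference of -0.40 ± 0.09 (adjusted p = 0.00222). Mitoferrin 1 (Slc25a37), known from red cell precursors, was at 9.08, 8.93, 8.84 and 8.70 in brain and 9.05, 9.15, 9.40 and 8.99 in muscle. Its groups overlapped, and the difference of -0.26 ± 0.12 did not pass as deposited (adjusted p = 0.0669). Slc25a40, a glutathione carrier, was at 8.30 to 8.53 in brain and 7.26 to 7.32 in muscle, a difference of 1.10 ± 0.09.

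Of 7 tested carriers of nucleotides, cofactors and vitamins, 2 were higher in brain under all scalings, against 31.6% of all genes. Slc25a17, a peroxisomal carrier of coenzyme A and other nucleotides, was at 8.38, 8.57, 8.72 and 8.84 in brain and at 6.34, 7.06, 6.79 and 6.60 in muscle, a difference of 1.93 ± 0.16. Its second probe set was at 0.28 and did not pass. The pyrimidine nucleotide carrier Slc25a33 was at 10.40, 10.55, 10.77 and 10.74 in brain and at 9.08, 9.09, 9.24 and 9.25 in muscle, a difference of 1.45 ± 0.11. Its relative Slc25a36 had no settled side. Among the members without a settled group, Slc25a47, best known from liver, was at 6.39 to 6.45 in brain and 7.30 to 7.55 in muscle (-1.04 ± 0.08). It entered the test through its muscle level alone, so a difference was built into its inclusion. Slc25a35 was at 6.997 to 7.12 in brain and 7.54 to 8.27 in muscle (-0.76 ± 0.15), and Slc25a45 at -0.25 ± 0.10, with overlapping groups as deposited.

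Partner genes from a list outside the Slc25a names gave the following wild-type differences. Of the family members named by another scheme, 1 of 4 tested was higher and 3 were lower in brain as deposited, against 59.3% and 22.4% of all genes. These members were Mtch1 at 2.62 ± 0.10, its homologue Mtch2 at -0.98 ± 0.10, and the uncoupling proteins Ucp1 at -2.98 ± 0.77 and Ucp3 at -2.05 ± 0.20. Ucp1 defines brown fat and ranged from 5.54 to 10.19 over the wild-type muscle arrays. Like Slc25a47, it entered the test through its muscle level alone. Of 15 tested enzymes that work with a carrier, 5 were higher and 8 lower in brain as deposited, where 59.3% and 22.4% of all genes were called, and 3 and 10 after centring, where 31.7% and 49.5% were. The carnitine enzymes were on both sides. Cpt2 (-3.39 ± 0.19) and Crat (-2.85 ± 0.10) were on the same side as Slc25a20, while Cpt1a (1.66 ± 0.11) and Cpt1c (5.11 ± 0.15) were higher in brain. Cpt1c was too dim for the genotype test in muscle. The mitochondrial creatine kinases, which use the ATP exported by the ADP/ATP carriers, were on opposite sides, with Ckmt2 at -7.24 ± 0.26 and Ckmt1 at 3.33 ± 0.10; Ckmt2 too entered the test through its muscle level alone. Of 13 other transport genes, 6 were higher and 5 lower as deposited, 3 and 10 after centring, against the same shares of all genes. The 3 outer membrane channels Vdac1, Vdac2 and Vdac3 were at -0.35, -0.23 and -0.84. The serine carrier Sfxn1 was at 3.22 ± 0.28.

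PWS-IC del arrays, which the wild-type comparison did not use, gave 16 members higher and 12 lower in brain as deposited, with 78.1% of all genes called, 57.3% higher and 20.9% lower. The same 9 members were brain-sided under all scalings, against 30.9% of genes. Another 12 were muscle-sided, against 20.9% of genes, and 9 of these were shared with wild-type. Slc25a28, Slc25a30 and Slc25a45 were muscle-sided in wild-type arrays and did not pass all scalings in PWS-IC del arrays. Slc25a25, Slc25a37 and Slc25a42 were the converse. Of the 33 members called in wild-type as deposited, 32 had the same sign in PWS-IC del, and 25 were also called there with that sign. The share over all genes is not given. Brain array medians lay above those of muscle in both genotypes, by 0.81 in wild-type and 0.86 in PWS-IC del, which favours a shared sign. Slc25a14 was at 4.42 ± 0.11, Slc25a18 at 4.29 ± 0.15, Slc25a5 at 1.78 ± 0.20, Slc25a12 at -1.04 ± 0.09 and Slc25a20 at -1.46 ± 0.16. Slc25a30 was at 0.18 ± 0.16 (adjusted p = 0.311) as deposited and at -0.67 after centring.

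The genotype comparison in brain found 0 of 39 members past the threshold with limma, where 9 of 13645 genes (0.066%) were called. At an unadjusted p under 0.05 there were 2 members, Slc25a45 and Slc25a48, or 5.13%, against 8.2% of all genes. The median member difference, PWS-IC del minus wild-type, was 0.01 with 22 positive and 17 negative, against 0.059 for all genes. The 95% interval lay within 0.5 log2 units of 0 for 31 members and within 1 for 38. The exception was Slc25a27, at -0.44 with an interval from -1.22 to 0.35, whose wild-type array 1 stood apart as given above. The chosen probe sets of the ADP/ATP and phosphate carriers were among the tight ones, with Slc25a4 at 0.01 ± 0.10, Slc25a5 at 0.01 ± 0.09 and Slc25a3 at -0.03 ± 0.10. Over all probe sets of each gene the brain difference ran from -0.003 to 0.26 for Slc25a4 and from -0.02 to 0.17 for Slc25a5. For Slc25a3 it ran from -0.30 to -0.03.

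The members of smallest p in brain all had an adjusted p of 0.556. Slc25a45 was at 8.10, 7.97, 7.92 and 7.77 in wild-type brain and at 7.64, 7.64 and 7.63 in PWS-IC del, a difference of -0.30 ± 0.10, with groups that did not overlap. Slc25a48, linked to choline transport, was at 7.27, 7.17, 7.46 and 7.04 against 7.04, 6.73 and 6.97 (-0.32 ± 0.13). Slc25a20 was at 8.93, 9.20 and 8.68 in PWS-IC del brain, which overlapped the wild-type arrays (0.33 ± 0.15). For Slc25a16 the PWS-IC del arrays were at 10.27, 10.21 and 10.38 against 9.92, 9.998, 9.91 and 10.27 in wild-type (0.26 ± 0.12), with overlap. The folate and FAD carrier Slc25a32 was at 8.26, 8.08 and 7.94 against 7.75, 7.90, 7.87 and 7.93 (0.23 ± 0.11), without overlap. Slc25a17 was at 8.83, 9.13 and 8.81 in PWS-IC del (0.30 ± 0.14), overlapping the wild-type arrays, and its second probe set was at -0.16. In all, groups did not overlap for 3 of 39 members, Slc25a32, Slc25a38 and Slc25a45, against 8.66% of all genes.

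In muscle too 0 of 40 members passed with limma, where 16 of 13645 genes (0.117%) were called. At an unadjusted p under 0.05 there were 3 members, Slc25a16, Slc25a30 and Slc25a45, or 7.5%, against 11.9% of all genes. The same 3 were the members whose groups did not overlap, against 12.2% of all genes. Both shares lie near or under the background. The median member difference was 0.02, against 0.015 for all genes, with 25 positive and 15 negative. Intervals lay within 0.5 of 0 for 29 members and within 1 for 36, the exceptions being Slc25a1, Slc25a10, Slc25a17 and Slc25a30. Slc25a4 was at 0.01 ± 0.07 and Slc25a12 at 0.04 ± 0.08, while the acylcarnitine carrier Slc25a20 was at 10.59, 10.31 and 10.28 in PWS-IC del muscle (-0.24 ± 0.16).

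**Figure D3:**
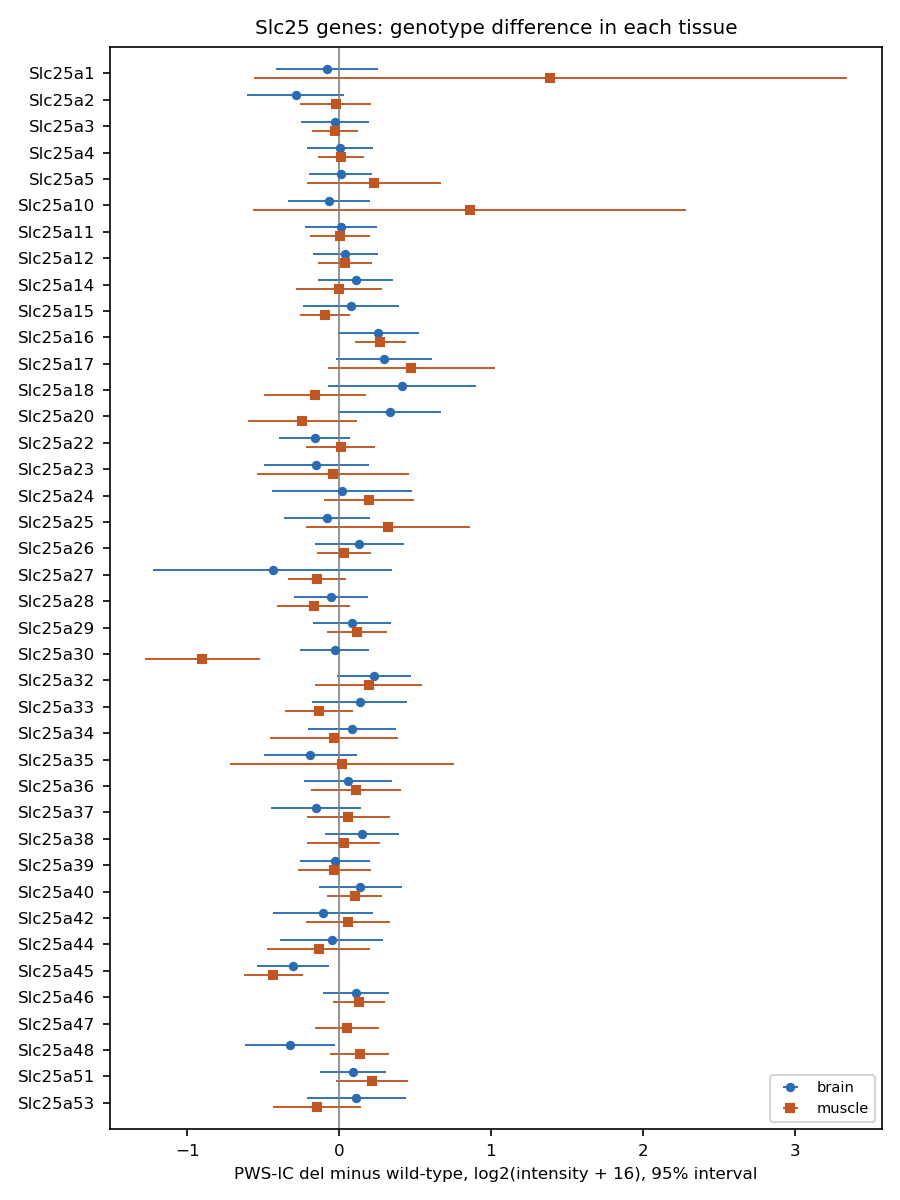
Genotype difference of each tested Slc25 gene (x axis, PWS-IC del minus wild-type in log2(intensity + 16), bars 95% intervals of single genes) in brain (circles, 39 genes) and muscle (squares, 40 genes). The point lowest on the x axis is Slc25a30 in muscle at -0.90, and the widest intervals are those of Slc25a1 (-0.56 to 3.34) and Slc25a10 (-0.56 to 2.29) in muscle.

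Slc25a30, described as a kidney mitochondrial carrier, had the smallest p in muscle. Its chosen probe set was at 9.02, 9.55, 9.08 and 9.11 in wild-type and at 8.24, 8.60 and 8.04 in PWS-IC del muscle, so every PWS-IC del array lay under every wild-type array. The difference was -0.90 ± 0.17 (SE), with an interval from -1.28 to -0.52. It missed the threshold over all genes (adjusted p = 0.0955) and with quantile normalization (adjusted p = 0.0653), and passed after median centring, with the mean of its probe sets and with array weights. Over its 16 alternatives the adjusted p ranged from 0.0217 to 0.289, and those 3 were the ones that passed. Its other probe sets are further readings of the same samples. Of these, 3 were bright enough to be tested, at -0.62, -0.55 and -0.75, each with groups that did not overlap. The one at -0.75 ± 0.10 passed over all probe sets (adjusted p = 0.0415), as the single call among 83 Slc25 probe sets in muscle, where 0.142% of all probe sets were called. That probe set was at 8.04, 8.18, 7.96 and 7.87 in wild-type and 7.25, 7.39 and 7.15 in PWS-IC del. The remaining one was dim and overlapped. In brain the 4 tested probe sets were at -0.03 to 0.21, and the chosen one was at 8.60, 8.50 and 8.33 in PWS-IC del, among the wild-type arrays.

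**Figure D4:**
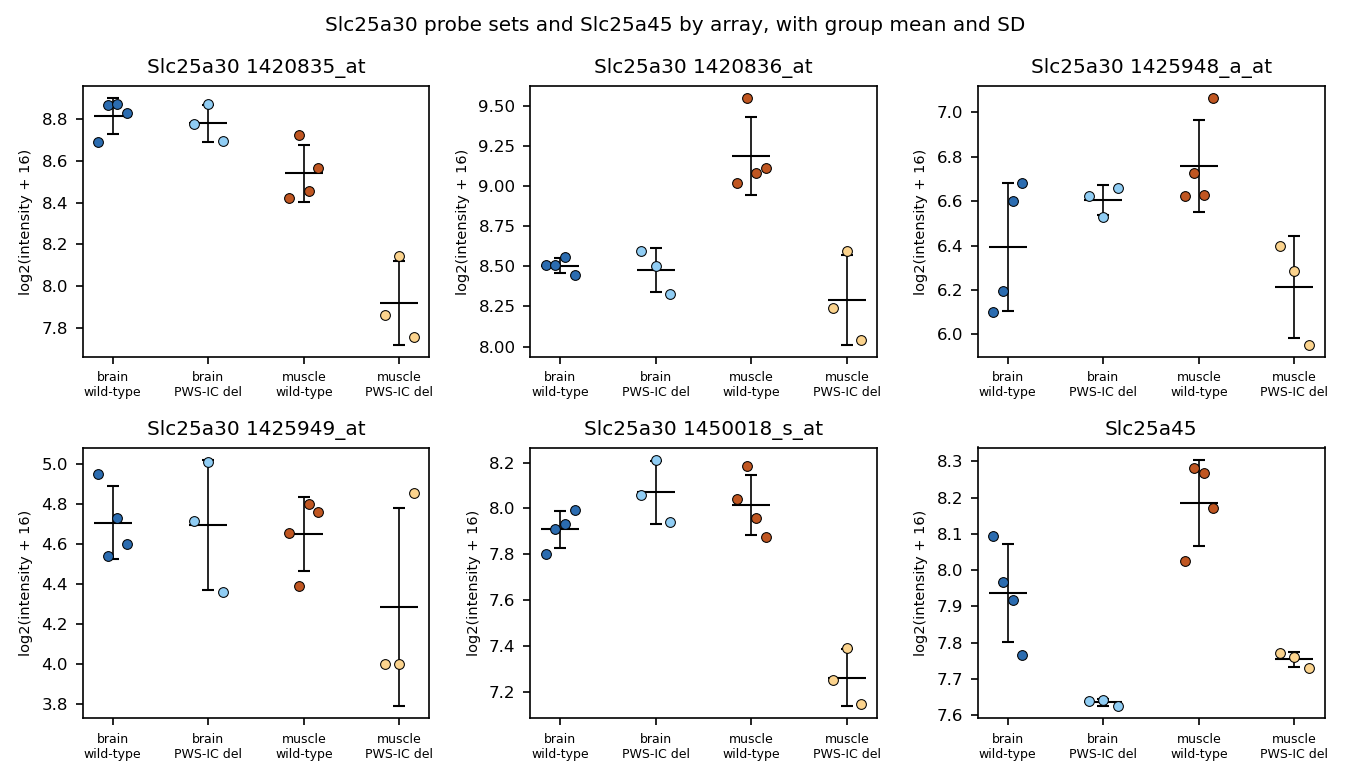
The 5 probe sets of Slc25a30 and the probe set of Slc25a45 in each array (points, y axis in log2(intensity + 16)), by tissue and genotype, with group mean and SD; y ranges differ. In muscle the PWS-IC del points lie under the wild-type points for 4 Slc25a30 probe sets and for Slc25a45; the dimmest probe set overlaps in all groups and was not tested.

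Slc25a45, a member long without an assigned substrate, was at 8.02, 8.28, 8.27 and 8.17 in wild-type muscle and at 7.77, 7.76 and 7.73 in PWS-IC del muscle. The groups did not overlap, as in brain, and the difference was -0.43 ± 0.08 (adjusted p = 0.106). The mean of the 6 endothelium markers was 7.04 to 7.64 in wild-type brain against 6.86 to 7.14 in PWS-IC del brain, and 8.60 to 8.996 against 8.14 to 8.62 in muscle. The PWS-IC del group mean was under the wild-type mean for all 6 of them in both tissues, though no tested one passed the threshold. Their part in Slc25a45 was not tested. Slc25a16, linked to coenzyme A in mitochondria, was at 9.77, 9.66, 9.80 and 9.68 against 9.98, 10.01 and 10.01 (0.27 ± 0.07, adjusted p = 0.221). The NAD carrier Slc25a51 was at 11.23, 11.36 and 10.97 in PWS-IC del against 10.98, 11.03, 11.01 and 10.87 (0.22 ± 0.10, adjusted p = 0.455). Slc25a46, which acts at the outer membrane, was at 11.12, 11.13 and 10.98 against 10.996, 10.91, 10.91 and 10.98 (0.13 ± 0.07), and both overlapped.

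The genotype difference averaged over brain and muscle was examined after Slc25a45 had been seen to lie lower in both tissues, so it is no independent evidence. By it 1 of 40 members passed, Slc25a45 at -0.37 ± 0.06 (adjusted p = 0.0372), where 30 of 14952 genes (0.201%) were called. The call was lost in 12 of 14 fits that each left out 1 array, all but those without wild-type brain array 4 or wild-type muscle array 1. It was also lost with the genotype and replicate number together as a random block. Slc25a30 was at -0.46 ± 0.10 (adjusted p = 0.100) and Slc25a16 at 0.27 ± 0.07 (adjusted p = 0.162).

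Whether the genotype effect differed from brain to muscle was then tested over all 14 arrays. It passed for 0 of 40 members with limma (0.0803% of genes called), with 3 (7.5%) at an unadjusted p under 0.05, against 6.57% of genes. Slc25a30 was at 0.87 ± 0.20 (adjusted p = 0.269), from -0.03 in brain and -0.90 in muscle. Slc25a48 was at -0.46 ± 0.16 (adjusted p = 0.629); in muscle it was at 7.01, 6.97, 7.01 and 7.16 in wild-type and 7.13, 7.11 and 7.29 in PWS-IC del. Slc25a20 was at 0.57 ± 0.23 (adjusted p = 0.709). The partner lists, of which 3 to 4 family members, 13 transport genes and 14 enzymes were tested, had 0 calls in either tissue's genotype comparison. At an unadjusted p under 0.05 they held only Sfxn3 in muscle (0.45 ± 0.14), where 11.9% of all genes were under it, and 8.2% in brain.

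The widest genotype intervals in muscle belonged to carriers whose arrays were uneven within each genotype. Slc25a1, which exports the citrate used for fatty acid synthesis, was at 7.12, 10.10, 7.90 and 7.23 in wild-type muscle and at 9.95, 10.71 and 7.77 in PWS-IC del muscle. Slc25a10 was at 6.79, 9.24, 7.52 and 7.24 against 8.75, 9.47 and 7.46. In both genes wild-type array 2 and PWS-IC del arrays 1 and 2 were the highest, the groups overlapped, and the differences of 1.39 ± 0.85 and 0.86 ± 0.62 did not pass. Of the 6 listed fat markers 4 had a single-symbol probe set, and their mean was highest in the same 3 arrays. It was at 8.42, 10.70, 9.24 and 8.71 in wild-type and at 10.23, 11.10 and 8.48 in PWS-IC del, and Adipoq, Cidec and Retn showed this order while Lep did not. ATP citrate lyase (Acly), which splits the exported citrate, was at 8.58, 11.93, 9.37 and 9.31 against 11.41, 11.89 and 9.66. These 3 arrays were also the highest for Slc25a5, Slc25a17, Slc25a24, Slc25a35 and Slc25a51. That makes 7 of 40 members, against 13.9% of all genes, a share near the background. In Slc25a17 the PWS-IC del arrays were at 7.29, 7.60 and 6.63 (0.48 ± 0.24), while its second probe set gave a difference of -0.01. The part of fat in these values was not tested.

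**Figure D5:**
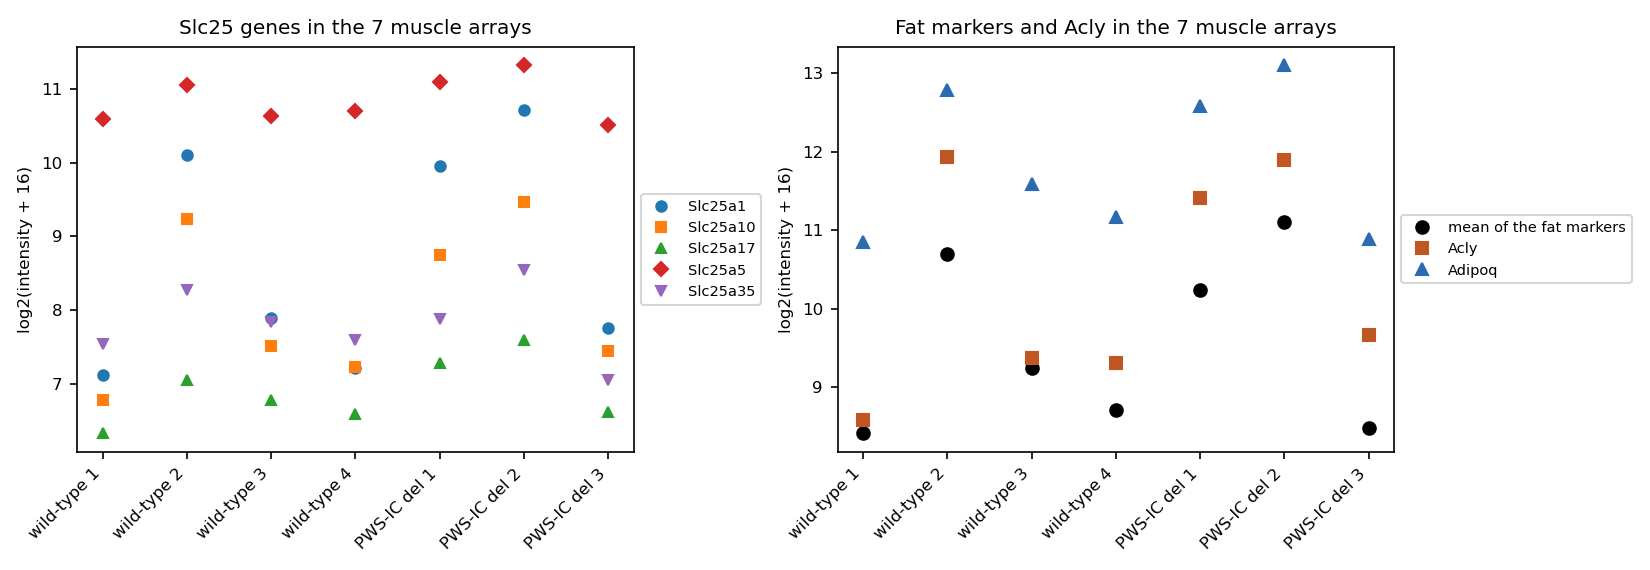
Values of 5 carriers (left) and of Adipoq, Acly and the mean of the 4 fat markers (right) in the 7 muscle arrays (x axis), in log2(intensity + 16). Wild-type array 2 and PWS-IC del arrays 1 and 2 are the 3 highest for each gene shown; Slc25a1 is at 9.95 to 10.71 in them and at 7.12 to 7.90 in the other 4.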

How the data were processed

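The authors deposited 1 linear intensity per probe set and array, with 0 missing values. These intensity values were made with PLIER and the Affymetrix Expression Console, per the submitters' processing notes; versions, background correction and between-array normalization are not given there. Total RNA was extracted with Trizol, per the labels' protocols. Gene symbols came from the platform annotation; those with several were not named.

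Values were taken as log2(intensity + 16). Each of 18193 genes was represented by its single-symbol probe set with the highest mean, and genes under the 0.25 quantile of means were left out, in the tissue for genotype comparisons and in both tissues otherwise. The fits used limma 3.58.1 (lmFit, eBayes; R 4.3.3), 2-sided, with Benjamini-Hochberg adjustment over all genes tested and a threshold of 0.05. Each comparison used its own groups, and the interaction and the average over tissues used all 14 arrays.

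The members, partner and marker lists were chosen with earlier results of these data known, and substrate groups were written after the values were seen. Values per array are given for up to 8 tissue differences each way, the 6 members of smallest p per genotype comparison, 3 for the interaction and fixed substrate groups. Others were chosen after their values were seen. The arrays' number limits the precision. Alternatives covered pseudocounts of 1 and 64, median centring, quantile normalization, the filter, the mean of probe sets, array weights, a replicate block and leaving out arrays. The block was the replicate number, joined with the genotype for the interaction and the average over tissues. On simulated data of 13645 genes the brain fit recovered 24% of genes changed by 0.5 and 78% of those changed by 1, and the muscle fit 50% and 90%. The simulated noise was independent for each gene and array, without the unevenness of the marker lists given above. Recovery also depends on how many genes were changed, a number fixed in the simulation. These shares are therefore no measure of recovery in the real arrays.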

Additional observations from a re-analysis of the deposited data

Results flagged for a closer look

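Over 88 sets of 4 wild-type values, 44 members in 2 tissues, 1 array stood apart from the other 3 in 2 cases, fewer than the about 1 in 20 that chance gives, and in both it was wild-type muscle array 1. Slc25a22 was at 8.16 in that array and at 8.45 to 8.51 in the other 3. Slc25a32 was at 6.92 there and at 7.31 to 7.39 in the others.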

How the results depend on the processing

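The muscle count of 0 became 1 with median centring, 1 with the mean of probe sets and 9 with array weights, which called 1862 genes in all. Array weights called 2115 genes in all for the average of both tissues. The interaction count became 1 with the mean of probe sets (Slc25a30). The median tissue difference moved to -0.56 with median centring and -0.36 with quantile normalization in wild-type arrays, and to -0.65 and -0.47 in PWS-IC del arrays. Slc25a30 between PWS-IC del tissues reversed to -0.67 with median centring and -0.68 with quantile normalization. The count for the average of both tissues, all settings added after seeing the data, moved from 1 to 2 with median centring, 2 with quantile normalization and 6 with array weights. It fell to 0 with the replicate block and without wild-type brain arrays 1 and 2 or 1 and 3, and ranged from 0 to 3 with 1 array left out. The cause was not tested.

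Same-numbered samples correlated at -0.44 to 0.38 over all pairings, and at -0.03 to 0.15 between brain and muscle of one genotype. Such values cannot tell whether same-numbered samples came from one mouse, and the main fits used no pairing. With the replicate block, counts were 0 in brain, 0 in muscle, 32 and 29 between tissues and 0 for the interaction. The share of all genes called in these block fits is not given. Between tissues the main fits called 81.7% of all genes in wild-type and 78.1% in PWS-IC del. Over all alternatives 1126 values were classed as unchanged, of which 151 were counts or medians. Among values of single genes, 23 came to pass, 26 no longer passed and 2 reversed. A further 27 counts or medians moved. The replicate block and array weights gave no medians over members, and genes under a stricter filter gave no value. With 1 array left out the brain and muscle counts stayed at 0, and the wild-type and PWS-IC del tissue counts ranged from 30 to 33 and 23 to 28. Shares of all genes are not given for these fits either.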
